A study of Mus musculus with 12 samples.

Results

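Prostaglandin synthesis and receptor genes were followed in RAW264.7, a mouse cell line of macrophages transformed by Abelson leukaemia virus, after 24 h with palmitic acid, with recombinant FABP4, or with both. The genes were 2 prostaglandin E2 receptors (Ptger2 and Ptger4), 2 cyclooxygenases (Ptgs1 and Ptgs2), 3 prostaglandin E synthases (Ptges, Ptges2 and Ptges3), the prostaglandin dehydrogenase Hpgd and the lipoxygenase Alox5. They were chosen by gene name from the array's own annotation, with every probe of each gene, which gave 9 of 34797 gene names and 14 of 55681 probes. The fall of Ptger2 with palmitic acid alone was known when the genes were chosen, so the comparison of palmitic acid with control is described for them without a test.

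The groups were 0.2 mM palmitic acid with 200 nM FABP4, palmitic acid alone, FABP4 alone and control, with 3 one-colour arrays each and 12 in all. FABP4, also called aP2, binds fatty acids and is made by fat cells and macrophages. Palmitic acid is a saturated fatty acid. All groups, control included, received medium with 0.5% BSA that carried no fatty acid. The line had been grown with 10% serum, and the labels do not say whether serum was present during the treatments. The cells are 1 transformed line, and separate cultures behind the arrays of a group are not stated in the labels. The p-values therefore measure the spread among these samples, and that spread may be technical.

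Prostaglandins are made from arachidonic acid that phospholipases release from membranes. Ptgs1 (COX-1, present in many resting cells) and Ptgs2 (COX-2, induced in macrophages by inflammatory stimuli) turn it into prostaglandin H2, from which Ptges, Ptges2 and Ptges3 make prostaglandin E2. In macrophages prostaglandin E2 acts mainly through the receptors EP2 and EP4, encoded by Ptger2 and Ptger4, which raise cyclic AMP and are known to restrain TNF production. Hpgd encodes the dehydrogenase that inactivates prostaglandins, and Alox5 the 5-lipoxygenase that starts leukotriene synthesis from the same fatty acid.

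The values below come from single probes. Sequences are shown for Ptger2, for Ptger4 and Ptgs2, whose differences did not pass the test, and for both Ptges probes, which disagreed. Each line gives the first 30 bases of the probe, 5′ to 3′, as the scanner file annotation lists them.
Ptger2: taaatgcagtcagaccaaatgaaattcatt
Ptger4: aagcacattggctgtcattctgatgtgact
Ptgs2: tttttgaaaagtttgaagttagaacttagg
Ptges, probe 364: aaccctctgatcgcctggatacatttcctc
Ptges, probe 3583: atgataaaggactaaacctctgaacctgta

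In the mm9 coordinates of the files the Ptger2 probe lies at chr14:45622004-45622063 on the plus strand and the Ptger4 probe at chr15:5184419-5184478 on the minus strand. The Ptgs2 probe lies at chr1:151954744-151954803 on the plus strand. The Ptges probes lie on the minus strand at chr2:30748214-30748273 and chr2:30744995-30745054, and are named here by their start in the transcript, base 364 and base 3583. Over the whole probe 55% and 36.7% of the bases are G or C, so the probes differ in composition as well as in place. No genome of this build was used, and the exon or UTR that each probe covers was not analysed here.

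Each array held 59305 non-control spots, of which 42.8% to 46.7% were well above background and 0 were saturated. Levels are given as scaled intensity, the processed intensity divided by the array's 75th percentile and multiplied by 273.4, the geometric mean of the 12 percentiles. They compare arrays for 1 probe and not probes with each other. Differences are on the log2 scale with their SE from limma, and p-values were adjusted by Benjamini-Hochberg over all 17595 tested genes. There were 2 slides. The 3 controls shared slide 1 with FABP4 array 1, and the 6 arrays with palmitic acid shared slide 2 with FABP4 arrays 2 and 3. On slide 2 the arrays of palmitic acid with FABP4 lay in row 2 and FABP4 arrays 2 and 3 in row 1, so that within slide 2 this comparison cannot be told apart from the row. Palmitic acid arrays 1 and 2 lay in row 1 beside the FABP4 arrays, and array 3 in row 2. Of 8 macrophage markers 7 (Cd68, Csf1r, Adgre1, Itgam, Lyz2, Cd14 and Fcgr1) were well above background on all 12 arrays and 1, Mertk, on none. Their summed scaled intensity was 258200 to 271900 with palmitic acid and FABP4, 255500 to 265800 with palmitic acid, 243900 to 256600 with FABP4 and 248700 to 257500 in control. Fewer cells of a kind and less RNA per cell cannot be told apart in such RNA.

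Of the 9 genes 7 had a probe above background and were tested, and each of these 7 was well above background on all 12 arrays. Ptgs1 and Hpgd were not. The Ptgs1 probe was well above background on 1 of 12 arrays, the second palmitic acid array, at 69.7, and lay between 5.4 and 25.9 on the others. It reached 13.3 to 25.9 with palmitic acid and FABP4, against 5.78 to 8.41 with FABP4 and 5.4 to 7.15 in control, all not well above background. Both Hpgd probes were not well above background on any array, with 4.63 to 23 scaled intensity units. The lowest signal counted as well above background was 19.9 to 28.6 per array, so these 2 genes have only a rough upper bound in nearly all samples. It is rough because Ptgs1 had 25.9 on palmitic acid and FABP4 array 3 without being so counted, where the lowest counted signal was 24.4.

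**Figure D1:**
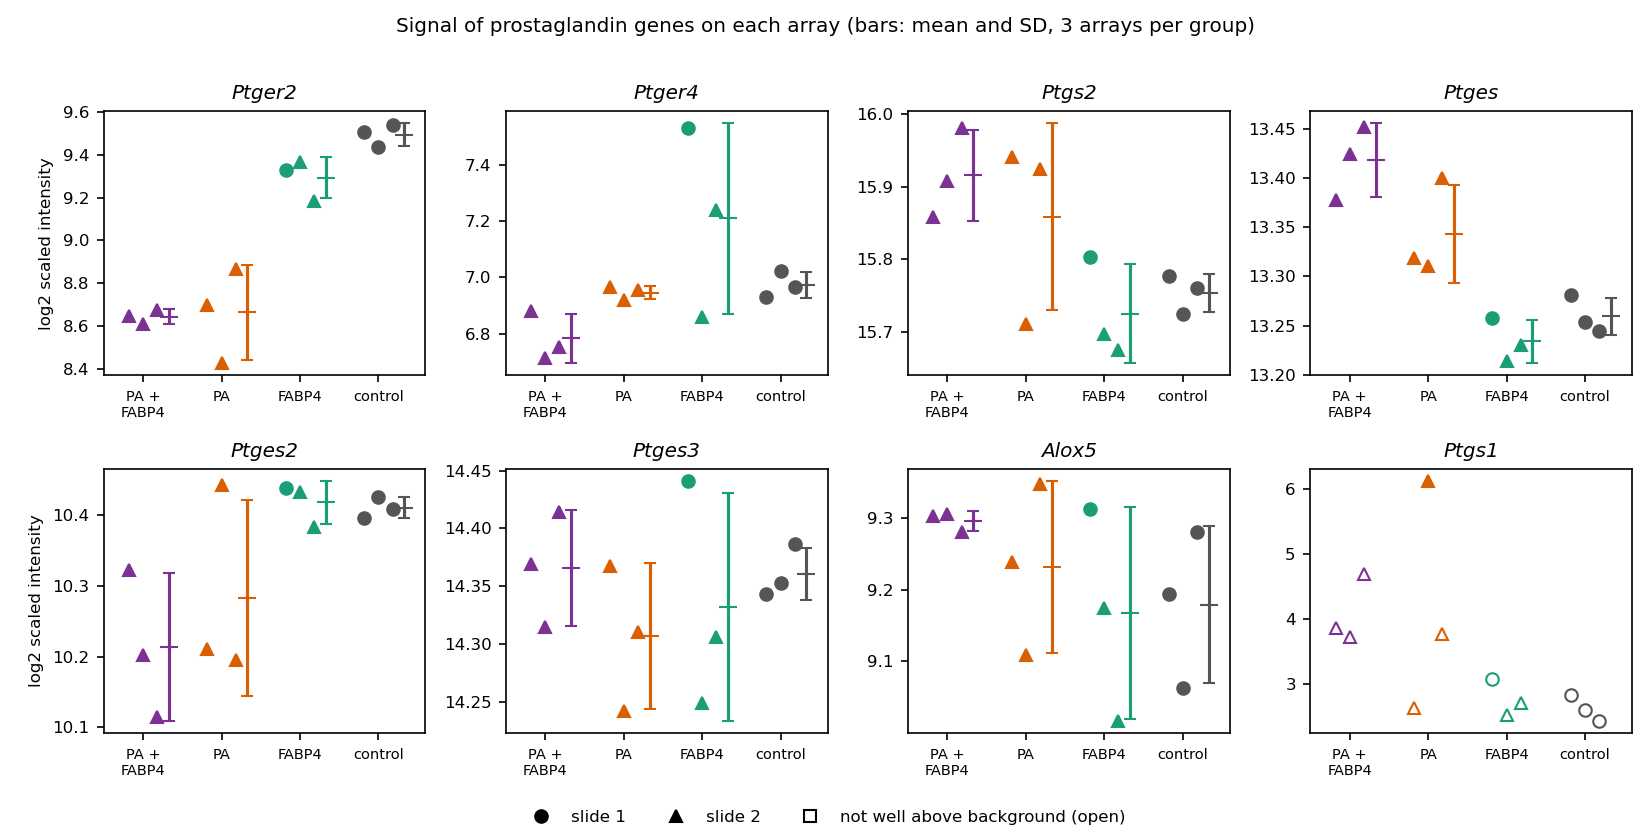
Log2 scaled intensity of 8 prostaglandin genes on each of the 12 arrays, with palmitic acid (PA) and FABP4 together on the left and control on the right of each panel; bars show the mean and SD of 3 arrays, circles and triangles mark slide 1 and slide 2, and open symbols were not well above background. The 6 arrays with palmitic acid lie below the other 6 for Ptger2, and 1 FABP4 array stands above all others for Ptger4.

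Palmitic acid given with FABP4 lowered the EP2 receptor gene Ptger2. The prostaglandin E synthase gene Ptges was higher by 0.18 on its brightest probe, a call near the threshold that ended in 23 of 26 other settings. Ptger4, Ptgs2, Ptges2, Ptges3 and Alox5 did not pass the test. This comparison asks what palmitic acid does to macrophages that also receive FABP4, and none of its 6 arrays took part in the comparison through which Ptger2 was known, although the fit takes its spread from all 12 arrays. In all, 2 of 7 prostaglandin genes were called at an adjusted p under 0.05, against 3.81% of all genes tested (670), of which 504 rose (2.86%) and 166 fell (0.943%). Since the genes were chosen with the fall of Ptger2 under palmitic acid alone known, nothing is read from the 2 of 7 beside that share. Probe by probe 2.72% of those tested were called. The split of the 670 depends on the scaling: it was 409 and 412 with the percentile over detected probes, 392 and 304 after quantile normalization, and 67 and 92 without scaling. The count fell to 247, 261 and 339 without array 1, 2 or 3 of palmitic acid with FABP4, and to 298 without FABP4 array 2. The median difference of the 7 genes was 0.03, beside 0.05 over all genes tested.

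Ptger2 had 401, 390 and 409 units on the arrays with palmitic acid and FABP4, against 644, 660 and 582 with FABP4. The groups did not overlap. It fell by 0.65 ± 0.10 on the log2 scale (SE, n = 3 arrays per group, limma adjusted p = 0.00658), a level 36.3% lower, with a 95% interval from -0.87 to -0.43. Within slide 2, where 3 arrays of the first group meet 2 of the second, the difference was -0.63, and with these arrays alone the call ended (adjusted p = 0.0635).

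The second receptor differed in its spread. Ptger4 had 118, 105 and 108 units with palmitic acid and FABP4, against 185, 116 and 151 with FABP4. The groups overlapped, since FABP4 array 2 lay below 1 of the other 3. The difference was -0.42 ± 0.13 (limma adjusted p = 0.117), with a 95% interval from -0.72 to -0.13. Single arrays decided its size: without FABP4 array 2 it was -0.60 and passed (adjusted p = 0.0128), and without FABP4 array 1, the one on slide 1, it was -0.26 (adjusted p = 0.19).

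Ptgs2, the inducible cyclooxygenase, gave 59373, 61452 and 64682 units with palmitic acid and FABP4, against 57157, 53121 and 52322 with FABP4. The lowest array of the first group was above the highest of the second. The difference of 0.19 ± 0.07 did not pass over all genes (limma adjusted p = 0.156, unadjusted p = 0.0188, with 20.9% of all genes under an unadjusted 0.05). Its probe is printed 10 times per array, and the 10 spots varied by 2.53% to 4.19% (coefficient of variation) within an array, with 0 outlier and 0 saturated spots. Between the 3 arrays of a group the array means varied by 4.34% with palmitic acid and FABP4, 8.69% with palmitic acid, 4.8% with FABP4 and 1.81% in control. In palmitic acid array 2 had 53604 units beside 62896 and 62202 on the others.

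**Figure D2:**
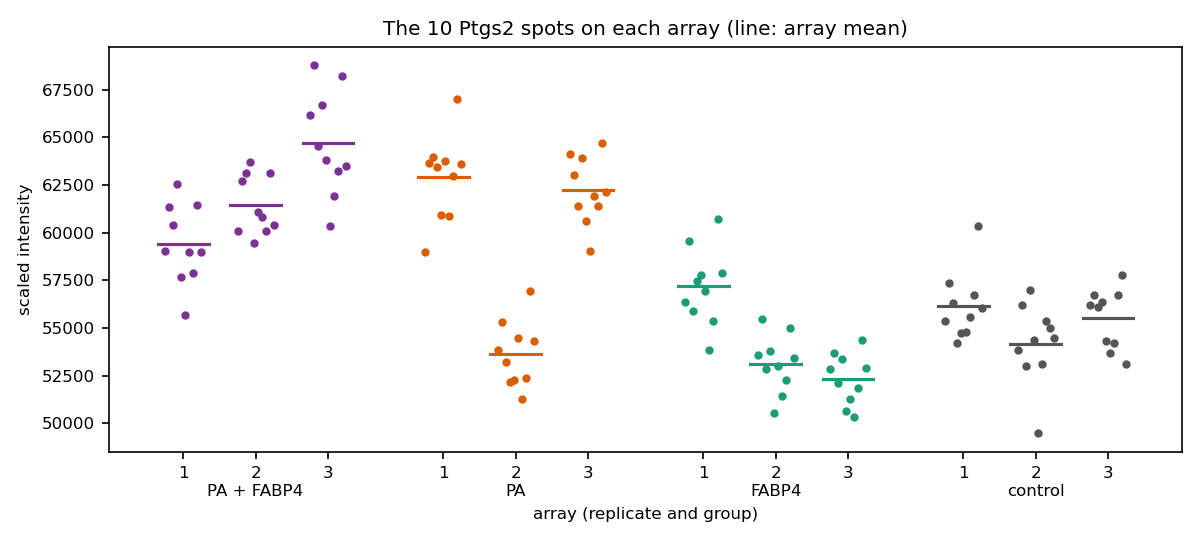
Scaled intensity of the 10 Ptgs2 spots on each of the 12 arrays, with a line at each array's mean; numbers under the axis are the replicates of each group and PA is palmitic acid. The arrays with palmitic acid and FABP4 average 59373 to 64682 and those with FABP4 52322 to 57157, while the second palmitic acid array lies at the level of the FABP4 and control arrays.

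Ptges, the synthase that couples to Ptgs2, had 10641, 10999 and 11206 units on probe 3583 with palmitic acid and FABP4, against 9793, 9499 and 9612 with FABP4. The groups did not overlap. It rose by 0.18 ± 0.04 (limma adjusted p = 0.0463), a level 13.6% higher. This call stood near the threshold and ended in 23 of 26 other settings, with adjusted p from 0.0421 to 0.705 and a difference from 0.09 to 0.21. Among these settings were those without each single array, of which the one without palmitic acid and FABP4 array 2 gave the highest adjusted p (0.148). On probe 364 the arrays gave 164, 160 and 172 units with palmitic acid and FABP4, against 140, 158 and 179 with FABP4. These groups overlapped, and the difference was 0.06 ± 0.10 (limma unadjusted p = 0.543). The mean of both probes gave 0.12 (adjusted p = 0.265).

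Ptges2, a membrane-associated synthase, had 1281, 1178 and 1109 units with palmitic acid and FABP4, against 1388, 1382 and 1336 with FABP4. All 3 arrays of the first group were lower, with a difference of -0.20 ± 0.07 (limma adjusted p = 0.156). Ptges3, the cytosolic synthase and co-chaperone also called p23, had 21161, 20378 and 21838 units on its brightest probe with both agents, against 22241, 19471 and 20261 with FABP4. Its groups overlapped, the difference was 0.03 ± 0.06 (adjusted p = 0.776), and its 4 probes ranged from -0.17 to 0.03, none with an unadjusted p under 0.05. Alox5 had 632, 633 and 622 units with both agents, against 636, 578 and 518 with FABP4, which overlap, and a difference of 0.13 ± 0.09 (adjusted p = 0.42). In this comparison 4 of 7 genes had groups that did not overlap (Ptger2, Ptgs2, Ptges and Ptges2), beside 26.3% of all genes tested.

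**Figure D3:**
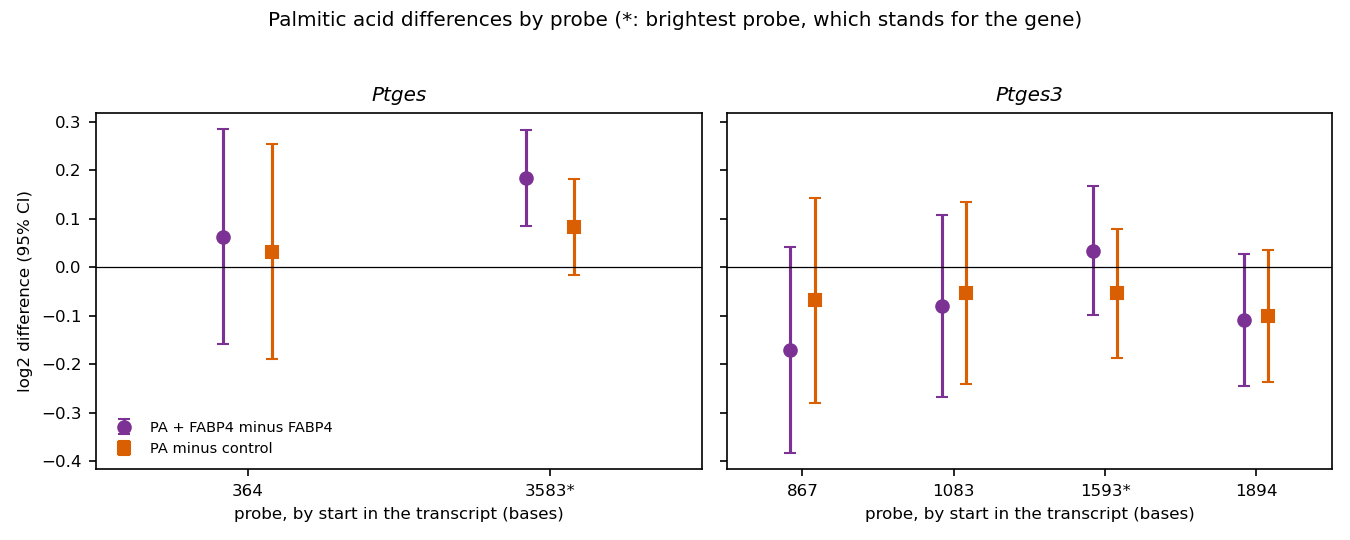
Log2 differences with 95% confidence intervals for each probe of Ptges and Ptges3, placed by the probe's start in the transcript, for palmitic acid (PA) with FABP4 minus FABP4 (circles) and PA minus control (squares, described without a test); an asterisk marks the brightest probe. Probe 3583 of Ptges is the only one of the 6 whose interval leaves out 0 for palmitic acid with FABP4.

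Palmitic acid without FABP4 gave lower Ptger2, and the other 6 genes differed little when the slide was left out of the fit. This is the comparison through which the genes were chosen, and its values are a description. It also sets slide 2 against slide 1 throughout. Ptger2 had 416, 344 and 467 units with palmitic acid, against 728, 693 and 745 in control, which is 43.8% lower (-0.83 ± 0.10), with no overlap. Over all genes tested 8.61% were called in this comparison (1515, of which 858 rose, 4.88%, and 657 fell, 3.73%, or 2945 and 110 without scaling). That count was 2714 without FABP4 array 1, the one on the controls' slide, 655 and 677 without control array 1 or 3, and 928, 728 and 905 without palmitic acid array 1, 2 or 3. With the slide as a block, which rests on the FABP4 arrays of both slides, the Ptger2 value was -0.78 ± 0.18. Within slide 2, palmitic acid alone minus FABP4 alone was -0.61 for Ptger2 (3 arrays against 2), and -0.71 for the 2 and 2 arrays of row 1. No control array lay on slide 2.

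Ptger4 had 125, 121 and 124 units with palmitic acid, against 122, 130 and 125 in control, a difference of -0.03 ± 0.13. Ptgs2 had 62896, 53604 and 62202 units with palmitic acid, against 56122, 54147 and 55502 in control. The second palmitic acid array lay below all controls and the other 2 above them, and the mean difference was 0.10 ± 0.07. Ptges on probe 3583 had 10217, 10158 and 10814 units with palmitic acid, against 9952, 9764 and 9705 in control. Its groups did not overlap at a difference of 0.08 ± 0.04. Ptges2, Ptges3 and Alox5 differed by -0.13 ± 0.07, -0.05 ± 0.06 and 0.05 ± 0.09. Other settings, among them the slide as a block and no scaling, moved these differences. Over 25 such settings Ptger4 ranged from -0.09 to 0.46, Ptgs2 from 0.06 to 0.28 and Ptges from 0.055 to 0.26. Ptges2 ranged from -0.21 to 0.045, Ptges3 from -0.08 to 0.12 and Alox5 from -0.01 to 0.27. Groups without overlap were 2 of 7, Ptger2 and Ptges, beside 33.9% of all genes.

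FABP4 moved none of the 7 genes past the test, with or without palmitic acid. For FABP4 against control 0 of 7 were called by limma, 0 had an unadjusted p under 0.05, and 0.0171% of all genes tested were called (3, with 1273 or 7.24% at an unadjusted p under 0.05). The largest differences were those of the receptors. Ptger2 had 644, 660 and 582 units with FABP4, against 728, 693 and 745 in control, with no overlap and a difference of -0.20 ± 0.10 (adjusted p = 0.724). It was the 1 gene of 7 without overlap, beside 10.4% of all genes. On slide 1 alone, FABP4 array 1 was 0.16 below the mean of the 3 controls on the log2 scale (-0.16). Ptger4 had 185, 116 and 151 units with FABP4, against 122, 130 and 125 in control, with overlap and 0.23 ± 0.13 (adjusted p = 0.769). The difference was 0.56 for FABP4 array 1 on the controls' slide and 0.07 for FABP4 arrays 2 and 3 across the slides. Ptgs2, Ptges, Ptges2, Ptges3 and Alox5 lay between -0.03 and 0.01 (adjusted p from 0.961 to 0.997), and the widest of their 95% intervals, that of Alox5, ran from -0.21 to 0.18.

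Palmitic acid with FABP4 against palmitic acid alone, all on slide 2, gave 0 of 7 called by limma and 0 at an unadjusted p under 0.05, beside 0% of all genes called and 1034 or 5.88% at an unadjusted p under 0.05. Ptger2 had 401, 390 and 409 units with both agents, against 416, 344 and 467 with palmitic acid alone, whose range holds all 3. Its difference was -0.02 ± 0.10 (adjusted p = 0.985), with a 95% interval from -0.24 to 0.20. Ptger4 had 118, 105 and 108 units with both, against 125, 121 and 124 with palmitic acid, the 1 gene of 7 without overlap (14.5% of all genes), at -0.16 ± 0.13 (adjusted p = 0.862). The other 5 lay between -0.07 and 0.08 (adjusted p from 0.81 to 0.922).

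The interaction term, the palmitic acid difference with FABP4 minus that without, did not pass for any of the 7 genes, beside 0% of all genes called and 1218 or 6.92% at an unadjusted p under 0.05. It contains the palmitic acid comparison through which Ptger2 was known. It was 0.18 ± 0.14 for Ptger2 (limma adjusted p = 0.763, 95% interval from -0.13 to 0.49) and -0.40 ± 0.19 for Ptger4 (adjusted p = 0.713, interval from -0.82 to 0.02). That of Ptger4 contains FABP4 array 1, the highest Ptger4 value of all. The other 5 genes gave -0.08 to 0.10 (adjusted p from 0.723 to 0.884). The comparisons of FABP4 share arrays with those of palmitic acid, so their values are given side by side and not set against each other.

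**Figure D4:**
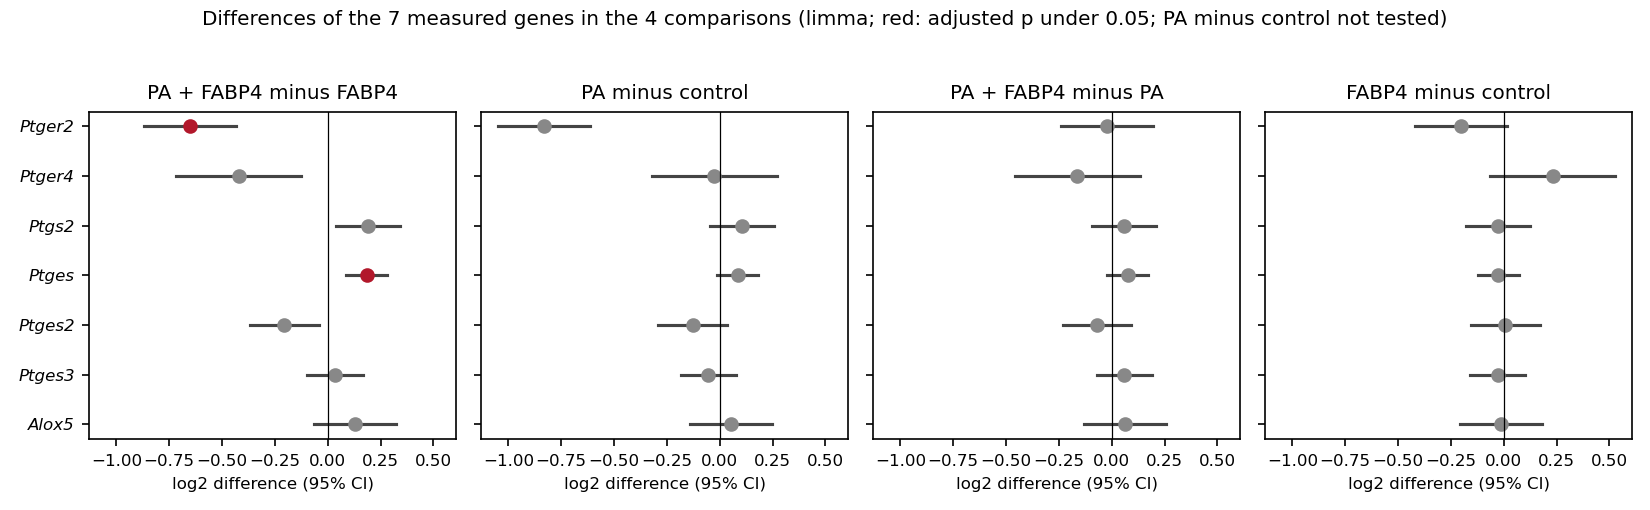
Log2 differences with 95% confidence intervals of the 7 measured prostaglandin genes in the 4 comparisons (PA is palmitic acid); red points passed an adjusted p of 0.05 in limma, and PA minus control is shown without a test. Ptger2 lies at -0.65 and -0.83 in the palmitic acid comparisons and at -0.02 and -0.20 in the FABP4 comparisons.

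Across the 4 groups Ptger2 averaged 400 ± 9.73 units with palmitic acid and FABP4, 409 ± 62.1 with palmitic acid, 628.8 ± 41 with FABP4 and 721.9 ± 26.6 in control (SD, n = 3 each). The first 2 groups do not differ beyond their spread, and FABP4 and control, though apart on these arrays, did not pass the test. Ptger4 averaged 110.4 ± 6.89, 123.5 ± 1.75, 150.4 ± 34.6 and 125.8 ± 3.93 in the same groups, and its FABP4 group alone had a wide spread. Ptgs2 averaged 61840 ± 2680, 59570 ± 5180, 54200 ± 2590 and 55260 ± 1010. Its group with both agents overlaps that with palmitic acid alone, and FABP4 overlaps control. Ptges on probe 3583 averaged 10950 ± 286, 10400 ± 363, 9634 ± 148 and 9807 ± 129, in the same order of groups as Ptgs2.

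Over the 12 arrays Ptgs2 and Ptges had a Pearson correlation of 0.86 across groups, Ptgs2 and Ptges2 of -0.92, and Ptger2 and Ptges of -0.75. These arrays share groups, slides and scaling, and the values are a description. The 3 tested genes with the pattern most like Ptger2 over the 12 arrays were Abcg1, a cholesterol exporter (r = 0.98), Mboat1 (0.98), a lysophospholipid acyltransferase, and Aasdh (0.97). For Ptgs2 they were the transcription factor Klf6, the autophagy gene Atg12 and the pteridine reductase Qdpr (0.94 each). For Ptges they were Il11ra1 (0.97), the signal peptidase subunit Spcs2 and the RAS effector Rassf1 (0.96 each). For Ptger4, whose pattern rests largely on 1 array, no gene passed 0.87, and of the 3 nearest only Galnt4 (0.86) has a current symbol.

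Other genes of the pathway were followed in lists chosen with earlier results of these data known. In palmitic acid with FABP4, 13 of their 97 tested genes were called (13.4%), beside 3.81% of all genes tested, and since the lists were so chosen nothing is read from that difference. Of the 13 calls 2 were kept without scaling, 2 with only the groups compared, 4 without the filter on dim probes, and 5 on slide 2 alone. Of 16 tested genes that release or re-esterify arachidonate, 2 rose and 0 fell, with a list median of 0.00. They were Pla2g16, a phospholipase (0.25 ± 0.05, limma adjusted p = 0.0186), and Daglb, a diacylglycerol lipase whose product yields arachidonate (0.30 ± 0.07, adjusted p = 0.04). Pla2g16 had 1867, 1765 and 1854 units with both agents, against 1544, 1463 and 1604 with FABP4. Its call ended without 3 of the 12 arrays in turn (highest adjusted p = 0.083), and that of Daglb without 10 (highest 0.149, without palmitic acid and FABP4 array 1).

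Of 6 other prostanoid synthases 0 were called by limma in palmitic acid with FABP4, with a median of 0.12. The largest of them was Hpgds, the haematopoietic prostaglandin D synthase (0.48 ± 0.12, adjusted p = 0.0639), named here after its values were seen. Of 7 other prostanoid receptors only Ptgir, the prostacyclin receptor, was above background in a whole group. It rose by 0.32 ± 0.07 (adjusted p = 0.0433), with 2157, 2073 and 2244 units with both agents, against 1882, 1614 and 1696 with FABP4. The groups did not overlap, and the call ended without 10 of 12 arrays in turn (highest adjusted p = 0.132, without FABP4 array 2). Of 6 tested transport and breakdown genes 0 rose and 1 fell, with a median of 0.03. That was Abcc4, an exporter of prostaglandins and cyclic nucleotides (-0.25 ± 0.04, adjusted p = 0.0124), with 412, 402 and 402 units with both agents, against 487, 493 and 466 with FABP4. Its call ended without 2 of 12 arrays (highest adjusted p = 0.0593, without palmitic acid and FABP4 array 2).

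Among 13 tested leukotriene and lipoxygenase genes 1 rose and 1 fell, with a median of 0.07. Ephx1, an epoxide hydrolase, rose by 0.42 (adjusted p = 0.0049) and kept its call without each array, while its second probe gave 0.23 ± 0.11 (adjusted p over probes = 0.291). Fpr2, a receptor for lipoxin and formyl peptides, fell by 0.41 ± 0.08 (adjusted p = 0.0189), and its call ended without 3 arrays (highest adjusted p = 0.0748, without palmitic acid and FABP4 array 1). Neither belongs to leukotriene synthesis itself.

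Of 25 tested genes of EP receptor and cyclic AMP signalling 2 rose, 1 fell and 22 did not pass, with a median of -0.07. Arrb1, an arrestin that takes receptors from the membrane, rose by 0.53 ± 0.10 (adjusted p = 0.0163). It had 694, 606 and 667 units with both agents, against 436, 405 and 530 with FABP4. Crem, a cyclic AMP-dependent transcription factor, rose by 0.30 (adjusted p = 0.0253) on its brightest probe, with 0.22 ± 0.11 on the other (adjusted p over probes = 0.31). Grk6, a receptor kinase, fell by 0.27 (adjusted p = 0.0384). These calls ended without 3, 4 and 10 of 12 arrays in turn, with highest adjusted p of 0.0742, 0.1 and 0.14.

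Of 17 tested genes that respond to cyclic AMP and CREB, 4 rose, 0 fell and 13 did not pass in palmitic acid with FABP4, with a median of 0.00. Per1, a clock gene, had 3188, 3237 and 3041 units with both agents, against 2360, 2070 and 2134 with FABP4 (0.53 ± 0.06, adjusted p = 0.000854). Rgs2, a regulator of G protein signalling, had 15246, 15097 and 14458 units, against 10846, 9465 and 9157 (0.61 ± 0.07, adjusted p = 0.00175). The nuclear receptor Nr4a1 had 1050, 872 and 989 units, against 600, 598 and 676 (0.63 ± 0.09, adjusted p = 0.0049). In none of the 3 did the groups overlap, and all 3 calls were kept without each of the 12 arrays in turn, some of which lie outside this comparison. On slide 2 alone Per1 and Rgs2 kept their calls and that of Nr4a1 ended (limma adjusted p = 0.0541). Nr4a1 had 815, 843 and 870 units in control, above all its FABP4 arrays. The same held for Per1, with 2512, 2466 and 2564 units in control. Vegfa, the angiogenic factor, rose by 0.34 (adjusted p = 0.0164) on its brightest probe, with 0.21 ± 0.11 on the other (adjusted p over probes = 0.324), and lost its call without 3 arrays (highest adjusted p = 0.0701, without palmitic acid and FABP4 array 2). These genes also respond to other signals, and their list holds 13 genes that did not pass.

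Of 15 genes that control Ptgs2 transcription or mRNA decay 0 were called by limma in this comparison, with a median of 0.00. At an unadjusted p under 0.05 stood Cebpd (-0.22), Jun (0.28), Nfatc1 (-0.40), Cebpb (0.13) and Hif1a (-0.24), named after their values were seen.

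**Figure D5:**
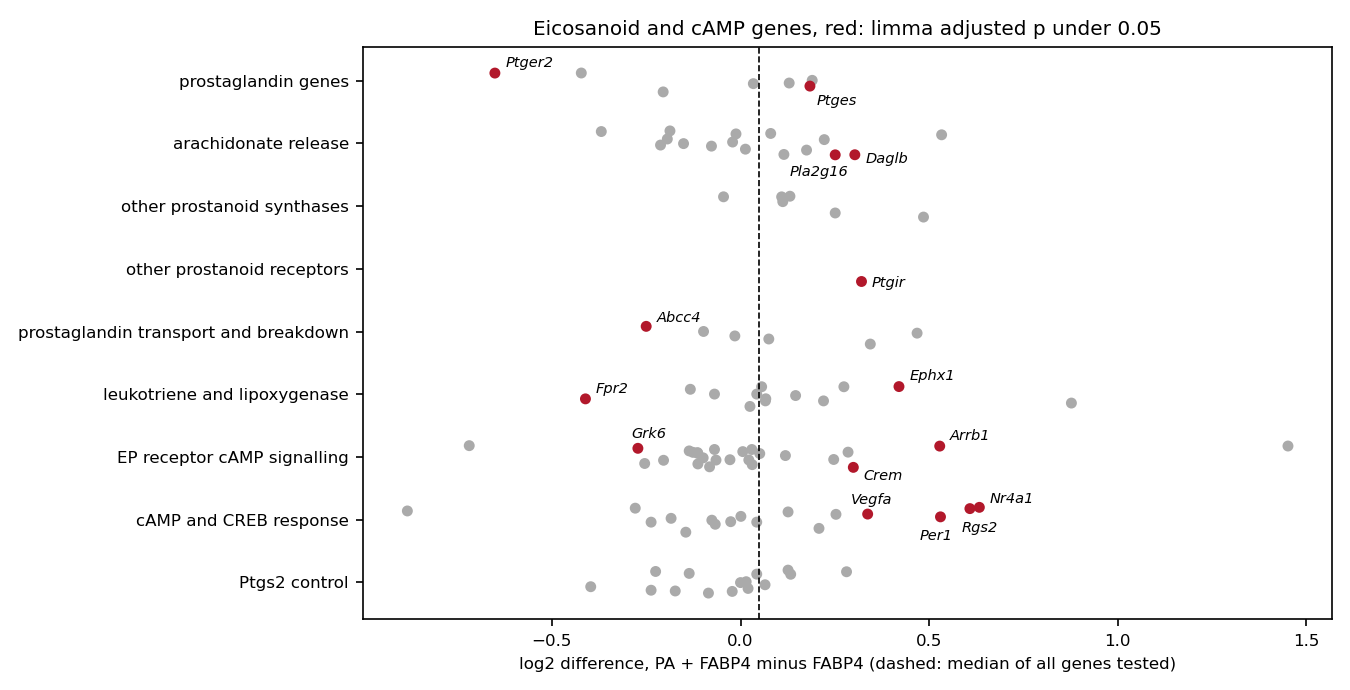
Log2 differences of palmitic acid (PA) with FABP4 minus FABP4 for the tested genes of the prostaglandin set and of 8 related lists; each point is 1 gene with a small vertical offset, red points passed an adjusted p of 0.05 in limma, and the dashed line is the median of all genes tested (0.05). Called genes stand on both sides of the line, Ptger2 at the lower end and Rgs2 and Nr4a1 at the upper end of those called.

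In palmitic acid without FABP4 27 of the 97 genes were called (27.8%), beside 8.61% of all genes tested, in a comparison that lies across the slides. Since the lists were chosen with earlier results of these data known, nothing is read from that difference either. The cyclic AMP and CREB list gave 5 rises and 2 falls, led by Vegfa (0.41 ± 0.06, adjusted p = 0.0051), Rgs2 (0.46 ± 0.07, adjusted p = 0.00564) and Per1 (0.32 ± 0.06, adjusted p = 0.0081). The signalling list gave 2 rises (Arrb1 and Crem) and 3 falls, led by Grk6. Arachidonate release gave 3 rises and 3 falls, led by the acyltransferase Mboat7 (-0.33 ± 0.05, adjusted p = 0.00645) and the secreted phospholipase Pla2g2e (0.36 ± 0.08, adjusted p = 0.0194). Of these rises that of Faah, an amide hydrolase, was favoured by the filter and is no test. Its probe passed the filter only through the arrays with palmitic acid. Faah was not well above background on any control array. Against the rough bound of the lowest signal well above background, it was at least 1.73-fold higher with palmitic acid, given as a description. With the slide as a fixed or a random block 2 of the 27 calls were kept, in both fits Rgs2 (0.68 with the fixed block, adjusted p = 0.0229) and Per1 (0.49, adjusted p = 0.0258).

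The leukotriene list gave 2 rises and 2 falls without FABP4, led by Fpr2 (-0.45 ± 0.08, adjusted p = 0.0083), Ephx1 (0.34 ± 0.06, adjusted p = 0.00876) and Alox12b. Ptgir rose by 0.29 (adjusted p = 0.0419). The transporter Slco3a1 rose by 0.61 (adjusted p = 0.0184) from a level above background on 2 of 3 control arrays, and Abcc4 fell by 0.19 (adjusted p = 0.0264). Of the Ptgs2 control list 0 rose and 2 fell, Cebpd by 0.27 (adjusted p = 0.0169) and Nfatc1 by 0.54 (adjusted p = 0.0248). In both comparisons of FABP4 and in the interaction 0 genes of these lists were called by limma.

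Markers of other cell types were mostly not well above background. Col1a1, Pdgfra, Lum, Kit, Mcpt4, Fcer1a, Tek, Ngp, Ltf, Ly6g, Adipoq, Lep, Plin1, Cd3d, Cd8a, Ms4a1 and Pax5 were above background on 0 of 12 arrays. Tpsb2, Kdr, Vwf, Ptgis, Camp, Cd3e, Cd4 and Cd79a were above on all 12, Cpa3 on 2, and Col3a1, Dcn, Cdh5, Mpo and Cidec on 1 each. Summed markers are given as scaled intensity. The endothelial markers, 3 of 5 above on all arrays, summed to 9048 to 10100 with palmitic acid and FABP4, 8032 to 9439 with palmitic acid, 6261 to 9276 with FABP4 and 8465 to 8736 in control. The adipocyte markers, 0 of 4 above on all arrays, summed to 39.8 to 47.1, 39.1 to 56 with palmitic acid alone, 29.1 to 62.6 with FABP4 and 26.1 to 31.5 in control, so that both groups with palmitic acid lay above control and overlapped FABP4. With 3 of the 4 above background on no array, and control on the other slide, nothing is read from that order. The T cell markers, 2 of 4 above on all arrays, summed to 3440 to 3695 with both agents, 2933 to 3801 with palmitic acid, 2680 to 3506 with FABP4 and 2838 to 3246 in control. Mast cell markers summed to 153 to 162.3 with both agents, 130.7 to 205.6 with palmitic acid, 117.6 to 240.9 with FABP4 and 112.6 to 148.1 in control, and neutrophil markers to 85.4 to 110.5, 71.7 to 102.1, 74.3 to 77.3 and 81.7 to 249.9 in the same order of groups. The fibroblast markers summed to 37.5 to 168.3 with palmitic acid and FABP4, 34.3 to 419.6 with palmitic acid, 34.5 to 45.6 with FABP4 and 35.1 to 37.8 in control. Their part in the results above was not tested.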

How the data were processed

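Total RNA, 50 ng per array, was labelled with Cy3 per the labels' protocols and measured on 12 Agilent arrays. Per the file headers, Feature Extraction 10.7.3.1 gave each spot a linear, background-subtracted processed intensity, flags and an mm9 position. The deposited value table of the authors matches these intensity values within 0.005, so it is linear and not centred, with column medians of 12.97 to 18.4. Further steps of the authors are not given in the sources used here.

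Control and outlier spots were left out, log2 processed intensity was centred on each array's 75th percentile over non-control spots, and spots of a probe were averaged. Probes well above background on all 3 arrays of a group were kept (23909), the brightest standing for its gene (17595 genes). A probe dim throughout a group gave a rough bound against the lowest signal well above background. The 4 group means were estimated from all arrays with limma 3.58.1 (lmFit, eBayes, two-sided) in R 4.3.3 with data.table (version 1.17.8). Calls are Benjamini-Hochberg adjusted p under 0.05. The scripts were tested on simulated data with known answers. There 70% of added log2 differences of 0.5 and 82% of those of 1 were called. The simulated arrays had no slide or row effect, unlike these. The median 95% interval of a difference reached 0.19 to each side, and the number of arrays limits the precision. Figures used matplotlib 3.10.9 in Python 3.11.15.

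The genes and lists were chosen with earlier results of these data known. Named are the 9 genes, from each list the called genes (at most 3 per list and comparison, by smallest p), and the 3 genes most like Ptger2, Ptger4, Ptgs2 and any called prostaglandin gene; others are marked as named after their values were seen. The lists cover arachidonate release, other prostanoid synthases and receptors, transport and breakdown, leukotrienes, EP receptor and cyclic AMP signalling, the CREB response, Ptgs2 control and 8 sets of cell markers, of which 1 marker is not reported here. Genes carry the names in the array annotation, with Prxl2b, Ptgdr2 and Adgre1 found under older names. Alternatives were other scalings, normexp (offset 50), the authors' values, other filters and probe rules, slide and replicate as blocks, fewer arrays, and each array left out.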

Additional observations from a re-analysis of the deposited data

Results flagged for a closer look

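One signal lay outside the tested values. The Ptgs1 probe gave 69.67 scaled intensity units on the second palmitic acid array, where it was well above background, beside 6.19 and 13.7 on the other palmitic acid arrays and 5.4 to 7.15 in control. Ptgs1 was not tested, since its probe was not above background on all arrays of any group.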

How the results depend on the processing

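Ptger2 kept its call in palmitic acid with FABP4 in 25 of 26 alternatives, from -0.75 to -0.55, and Ptges in 3 of 26. The alternative that ended the Ptger2 call was slide 2 alone (limma adjusted p = 0.0635). These alternatives are not independent: the authors' values match those used here within 0.005, and some left-out arrays lie outside the comparison. The prostaglandin genes called there were 1 in place of 2 with quantile normalization, the percentile over detected probes, no scaling, normexp, no filter, the mean of probes, every probe, the slide as a fixed block, the replicate block and only the groups compared, 0 on slide 2 alone, and 1 to 2 without each array. The 2 without FABP4 array 2 were falls, of Ptger2 and Ptger4, and the call of Ptges ended without each of the 12 arrays in turn. In palmitic acid without FABP4, through which Ptger2 was known, the number past the same threshold, 1, is no test of these genes. It was 2 without scaling and 0 with the slide as a fixed block. All genes called in palmitic acid with FABP4 were 159 without scaling, 185 without a filter, 260 on slide 2, 408 with the replicate block, 94 with only the groups compared, and 247 to 601 without each array. In palmitic acid without FABP4 they were 3055 without scaling, 513 without a filter, 138 and 191 with the slide as a fixed and a random block, and 655 to 2714 without each array. For FABP4 against control they were 103 with the slide as a fixed block, 1 without a filter or by probe, 0 with detected probes, normexp, the mean of probes, only probes detected everywhere, the slide as a random block, the replicate block or only the groups compared, and 0 to 59 without each array (59 without FABP4 array 1). For FABP4 with palmitic acid they were 1 by probe and 0 to 2 without each array, and for the interaction 3 without scaling, 37 with the slide as a fixed block and 0 to 5 without each array. Slide 2 alone gave no value for palmitic acid without FABP4, FABP4 against control or the interaction, since it holds no control. The causes were not tested.

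In the comparisons that were tested, small differences changed sign, none of them past the test (lowest limma adjusted p = 0.307). Signs also changed in palmitic acid without FABP4, which is described with no test. There Ptger4 ranged from -0.09 to 0.46 over 25 settings, Ptges2 from -0.21 to 0.045, Ptges3 from -0.08 to 0.12 and Alox5 from -0.01 to 0.27. No scaling shifted the median of all genes to 0.17 (palmitic acid), 0.13 (FABP4), -0.10 (FABP4 with palmitic acid) and -0.23 (interaction). There Ptges3 was -0.064 for palmitic acid with FABP4. Ptgs2, Ptges, Ptges3 and Alox5 were 0.11, 0.12, 0.11 and 0.13 for FABP4 against control, and -0.073, -0.055, -0.07 and -0.065 for FABP4 with palmitic acid. For the interaction Ptger2, Ptgs2, Ptges, Ptges3 and Alox5 were -0.091, -0.19, -0.17, -0.18 and -0.19. Ptges3 for palmitic acid with FABP4 was -0.035 with quantile normalization, -0.003 with detected probes and -0.081 as the mean of its probes, which gave 0.053 for FABP4 against control and -0.012 for the interaction. Alox5 for FABP4 against control was 0.01 with quantile normalization, 0.005 with detected probes, and 0.13 and 0.048 with the slide as a fixed and a random block. With these blocks Ptgs2 was 0.049 and 0.003 and Ptges3 0.08 and 0.016, and the fixed block gave -0.021 for Ptges3 and -0.067 for Alox5 in the interaction. Ptgs2 for FABP4 with palmitic acid was -0.011 with quantile normalization, and Ptger2 0.004 with normexp. Without each array in turn, FABP4 against control gave -0.084 to 0.064 for Alox5, -0.003 to 0.024 for Ptges2 and -0.083 to 0.013 for Ptges3, and palmitic acid with FABP4 gave -0.008 to 0.088 for Ptges3. FABP4 with palmitic acid gave -0.017 to 0.098 for Ptgs2, -0.12 to 0.011 for Ptges2 and -0.14 to 0.081 for Ptger2, and the interaction -0.13 to 0.003 for Ptges2.

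Replicate numbers in the labels do not pair the samples: same-numbered arrays had correlations of -0.08 to 0.07 between their deviations from the group means. With the replicate block Ptger2 in palmitic acid with FABP4 was -0.65 (adjusted p = 0.0168) and Ptges 0.18 (adjusted p = 0.0914). Of the 13 list calls with FABP4 2 were kept without scaling, 2 with only the groups compared, 4 without a filter, 5 on slide 2 alone, 12 with the slide as a fixed block and 5 to 12 without each array, and of the 27 without FABP4 2 were kept with the slide as a block.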
